A study of Mus musculus with 6 samples.

Results

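The genes described here are MYC, its dimer partner and its antagonists, together with 40 genes whose products build ribosomes in the nucleolus. They were taken by symbol from the gene table, and all 44 symbols were found among its 55401 rows and passed the filter on low counts. The samples were 3 NETs-treated and 3 control RNA-seq libraries of mouse cells of WT genotype. Both groups carry the cell type label BMDM, bone marrow-derived macrophages, while their titles name BV2, a mouse microglial line. Neutrophil extracellular traps (NETs) are webs of DNA and granule proteins that neutrophils release. Control cells carry the treatment label Normal, and neither dose nor exposure time is stated. The labels do not state whether replicates are independent cultures; each p-value reflects variation among these 6 libraries, possibly only technical variation.

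MYC is a transcription factor that binds DNA as a dimer with MAX, at sites called E-boxes. MXD1 and MXI1 also pair with MAX and repress genes that MYC-MAX dimers activate. Genes of ribosome production are well-known MYC targets. RNA polymerase I makes the long ribosomal RNA precursor in the nucleolus. Small nucleolar ribonucleoproteins (snoRNPs) guide the chemical marking of that precursor, a large assembly called the small subunit processome folds and cuts its first part, and further factors build the large subunit. In macrophages, MYC has been linked to growth-factor driven proliferation and to alternative activation.

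Total counts per library ran from 39994613 to 43686531 in NETs-treated and from 41830940 to 44274445 in control samples. Of the 10 macrophage markers all had counts, and their summed level was 10375 to 10669 CPM (the count relative to library size, scaled by TMM) in NETs-treated and 5921 to 6068 CPM in control samples. Lyz2 was the most abundant of these markers. Within this list, NETs-treated cells had 2 genes called higher and 8 called lower. These shares were 20% and 80%, against 25.5% and 27.2% of all genes tested. Sall1, a defining marker of microglia, was at 0 in all 6 libraries. Of the other microglia markers given here, P2ry12 had at most 0.212 CPM in NETs-treated and 0.744 to 1.10 CPM in control samples, and Gpr34 had at most 0.282 CPM in NETs-treated and 1.45 to 2.20 CPM in control samples, and both were called lower. Tmem119, at 4.66 to 5.55 CPM in NETs-treated and 1.10 to 2.09 CPM in control samples, was called higher. The 10 neutrophil markers summed to 9.57 to 15.1 CPM in NETs-treated and 3.81 to 5.24 CPM in control samples, with S100a8 the most abundant. S100a9, Ly6g, Mpo, Ngp, Ltf and Retnlg were at 0. The dendritic cell list, led by Zbtb46, reached at most 5.61 CPM, and the T cell, B cell, fibroblast, endothelial and mast cell lists reached at most 1.53 CPM in any library. In bulk samples a change in the mix of cells and a change of RNA per cell cannot be told apart, and the part of the moving marker lists in the results below was not tested.

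Promoter windows from RefSeq (GRCm38.p6), 250 bases before to 50 after the start of a gene, were available for 37 of the 44 genes. They were searched for CACGTG, the E-box that MYC-MAX dimers prefer, which reads the same on both strands. It stood in 9 of the 37 windows (24.3%), against 11.7% of the 10150 tested genes with a window and 8.09% of all 27025 genes with one. The small subunit processome had it in 5 of 10 windows, and the snoRNP group in 0 of 7. Such a match describes the letters and shows no binding. The sequences below run from 120 bases before to 30 bases after the start, with CACGTG in capitals. Utp4, Tsr1 and Max are shown as genes that rose, and Wdr43 and Pes1 as genes that fell while holding the same letters. Gar1 and Nop56, the snoRNP genes with the largest falls, hold no match.
Utp4, chr8:106893520-106893669, plus strand: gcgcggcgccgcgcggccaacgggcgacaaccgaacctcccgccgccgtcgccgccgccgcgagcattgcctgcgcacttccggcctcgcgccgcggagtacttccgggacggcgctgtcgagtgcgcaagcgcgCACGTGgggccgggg
Tsr1, chr11:74897960-74898109, plus strand: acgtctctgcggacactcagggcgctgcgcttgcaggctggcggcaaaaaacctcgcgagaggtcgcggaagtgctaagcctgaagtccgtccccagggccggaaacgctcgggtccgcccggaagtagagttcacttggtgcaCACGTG
Max, chr12:76962219-76962368, minus strand: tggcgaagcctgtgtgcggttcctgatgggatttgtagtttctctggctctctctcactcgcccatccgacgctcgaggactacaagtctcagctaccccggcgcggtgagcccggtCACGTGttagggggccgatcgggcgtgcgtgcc
Wdr43, chr17:71616095-71616244, plus strand: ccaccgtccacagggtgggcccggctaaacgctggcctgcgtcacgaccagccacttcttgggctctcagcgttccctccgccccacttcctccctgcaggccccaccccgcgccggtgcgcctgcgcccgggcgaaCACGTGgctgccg
Pes1, chr11:3963855-3964004, plus strand: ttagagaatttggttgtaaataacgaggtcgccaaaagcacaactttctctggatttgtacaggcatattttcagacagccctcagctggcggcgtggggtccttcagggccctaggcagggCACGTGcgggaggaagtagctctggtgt
Gar1, chr3:129831367-129831516, minus strand: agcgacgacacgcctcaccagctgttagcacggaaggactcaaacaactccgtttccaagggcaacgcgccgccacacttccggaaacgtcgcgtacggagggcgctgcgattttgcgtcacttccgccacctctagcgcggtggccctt
Nop56, chr2:130274292-130274441, plus strand: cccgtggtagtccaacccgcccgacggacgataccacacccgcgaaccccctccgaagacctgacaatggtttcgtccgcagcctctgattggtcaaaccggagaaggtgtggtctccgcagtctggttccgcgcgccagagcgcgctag

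The comparison asks which of these genes differ in expression after exposure to NETs. Myc fell and the genes of its antagonists Mxd1 and Mxi1 rose. The 40 ribosome biogenesis genes did not move as a block. Within this list, genes of the small subunit processome group mostly rose and snoRNP genes mostly fell. The genes of the abundant nucleolar proteins nucleolin and nucleophosmin did not pass. In NETs-treated cells 12 of the 44 were higher and 14 lower, and 18 did not pass (edgeR quasi-likelihood test over all tested genes, threshold 0.05 after Benjamini-Hochberg adjustment, with 3 samples in each group). Of all 15272 genes tested, 25.5% were higher and 27.2% lower by the same rule, so the totals of 27.3% higher and 31.8% lower lay near the background. The median log2 fold change of the 40 ribosome biogenesis genes was -0.06, against -0.02 for all genes tested. Of these 40 genes, 22.5% were higher and 32.5% lower. The 109 other ribosome biogenesis genes tested leaned the other way, with 37.6% higher, 15.6% lower and a median of 0.11.

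Changes were small in size. Only Bop1 passed with at least a 2-fold difference, where 7.39% of all genes tested did so upward and 11.9% downward. The 44 genes together took 0.723%, 0.696% and 0.677% of all counts in the NETs-treated libraries and 0.710%, 0.720% and 0.714% in the control libraries, and the groups overlapped. All 3 NETs-treated samples lay above all control samples for 14 of the 44 genes and below them for 15, near the 29.9% and 32.5% of all genes tested. Of the 26 calls, 17 held in all 17 other settings tried, and none of the 26 turned its direction. The count of lower genes was 8 without NETs-treated replicate 2, 9 without control replicate 2 and 9 without control replicate 3.

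**Figure D1:**
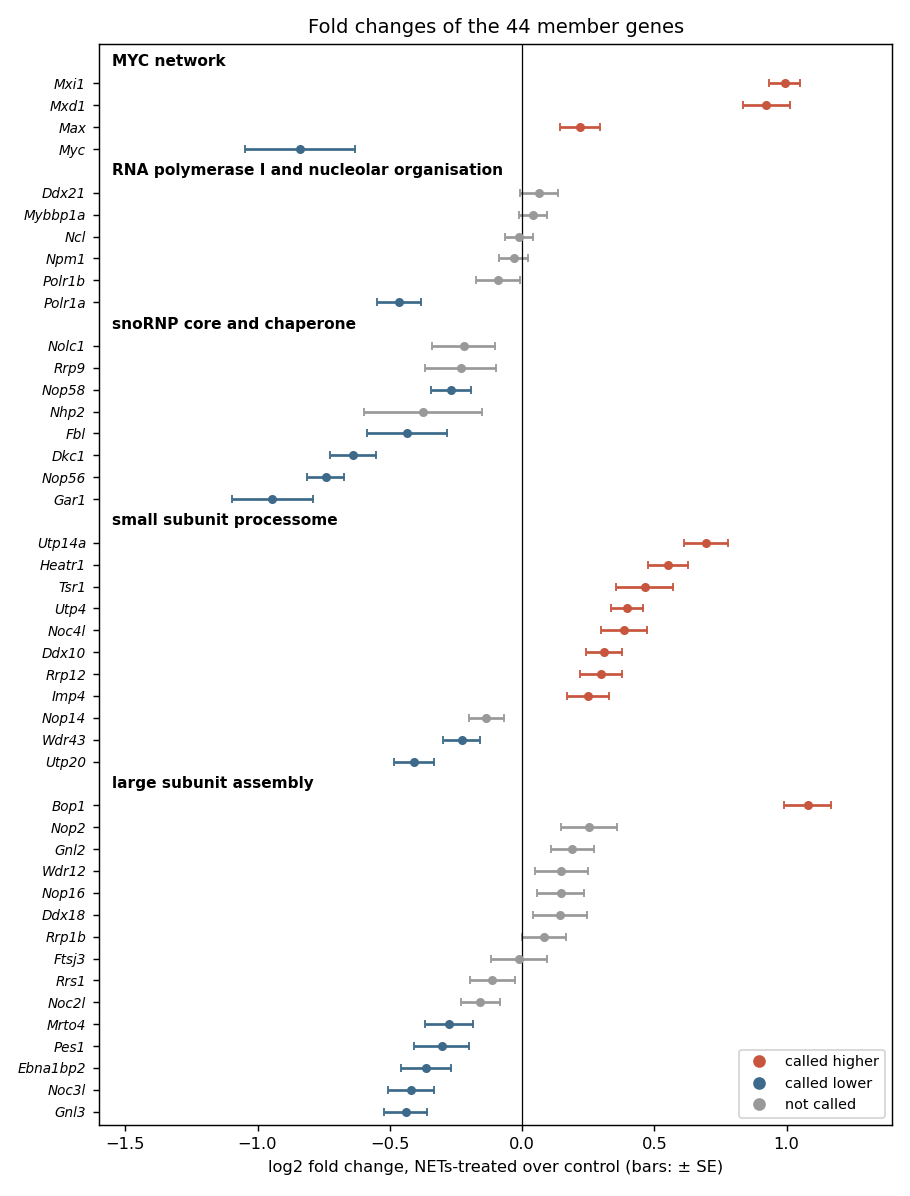
Log2 fold change of each of the 44 genes, NETs-treated over control, with bars of 1 SE on either side, grouped by role. Red points were called higher, blue points lower and grey points not called. The snoRNP genes all lie left of 0, 8 of the 11 small subunit processome genes lie to the right, and Bop1, at 1.08, has the largest rise.

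In the MYC network, Myc had 3.95, 3.79 and 2.91 CPM in NETs-treated samples and 7.33, 5.38 and 6.37 CPM in control samples. Every NETs-treated sample was below every control sample. These levels rest on 168, 152 and 114 reads in the NETs-treated and 315, 232 and 289 reads in the control libraries. Myc thus fell by 0.84 ± 0.21 (SE) on the log2 scale (edgeR adjusted p = 0.00942). Per kilobase of exon, Myc was the least abundant of the 44 genes in both groups, at 1.31 CPM per kilobase in NETs-treated and 2.34 in control samples. Myc (ENSMUSG00000022346.16) lies on chromosome 15 from 61985391 to 61990374 in GRCm38.

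Mxd1, which encodes a repressor that pairs with MAX and is known from differentiating cells, had 61.7, 55.7 and 60.4 CPM in NETs-treated and 33.7, 31.4 and 28.7 CPM in control samples. The groups stood well apart, and the log2 fold change was 0.92 ± 0.09 (SE; edgeR adjusted p = 5.21e-05). Mxi1, the gene of a related repressor, had 400, 405 and 419 CPM in NETs-treated and 202, 204 and 209 CPM in control samples. Its rise, 0.99 ± 0.06 on the log2 scale, was the most precisely measured of the network (edgeR adjusted p = 3.48e-06). Mxd1 (ENSMUSG00000001156.9) spans 86647042 to 86669161 on chromosome 6, and Mxi1 (ENSMUSG00000025025.14) spans 53310518 to 53375810 on chromosome 19.

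Max, the shared dimer partner, had 165, 163 and 142 CPM in NETs-treated and 135, 136 and 133 CPM in control samples. All NETs-treated samples were higher, but the rise was small, with a log2 fold change of 0.22 ± 0.08 (SE; edgeR adjusted p = 0.0381). This call was lost in 6 of 17 settings, with an adjusted p of up to 0.138; these were the samples without any one control replicate, without NETs-treated replicate 2, under library-size scaling and with no filter on low counts.

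Ratios of raw counts within a library do not depend on how libraries are scaled. They were chosen after the values were seen and are given as a description. The library's ratio of Mxd1 to Myc counts was 17.0 ± 3.26 in NETs-treated and 4.98 ± 0.739 in control samples (SD, n = 3 each). For Mxi1 to Max counts it was 2.62 ± 0.290 in NETs-treated and 1.52 ± 0.0408 in control samples. Neither ratio overlapped between the groups. For Mxd1 to Myc this follows from the levels above, as the groups of both genes stood apart in opposite directions, so it adds no support.

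**Figure D2:**
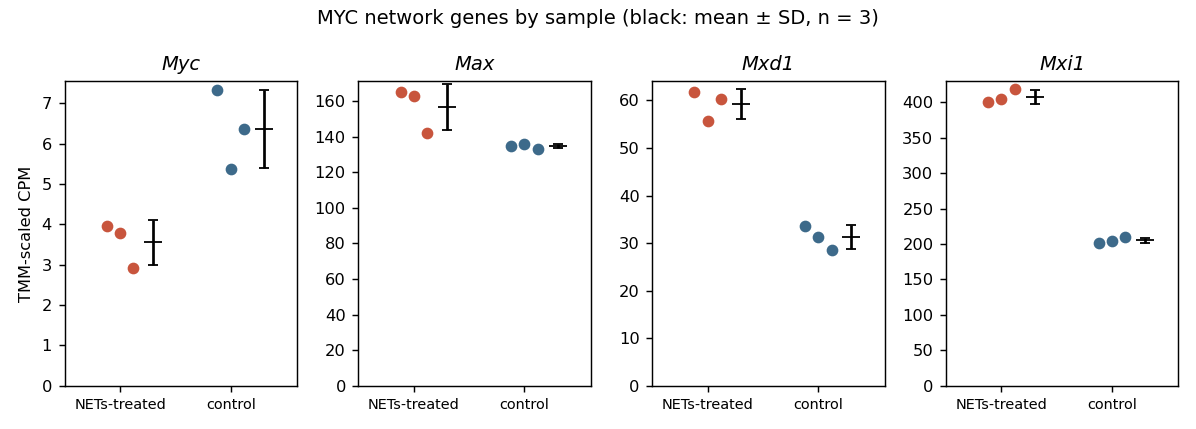
TMM-scaled CPM of Myc, Max, Mxd1 and Mxi1, with 1 point per sample and the mean ± SD of 3 samples in black, each panel on its own axis from 0. NETs-treated samples are lower for Myc and higher for the 3 other genes, with no overlap between groups.

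Of the 9 other genes of the extended network, 7 were tested, 1 was higher and 1 lower. These shares were 14.3% in either direction, against 25.5% higher and 27.2% lower of all genes tested. Mlxip, whose product MondoA pairs with MLX and senses glucose metabolites, rose to 107 ± 2.60 CPM in NETs-treated cells, against 71.0 ± 4.17 CPM in control cells. Mlxipl, which encodes the related glucose sensor ChREBP, had 0 counts in the NETs-treated libraries and 67 in the control libraries together. Taking 3 counts for the whole group as the floor and the 67 control counts as exact, it was at least 20.7-fold lower in NETs-treated cells. With the counting error of both groups, the upper 95% exact bound of the ratio, NETs-treated over control, was 0.0611. A filter of CPM of 1 in 3 samples removed it. The MYC paralogs Mycn and Mycl had 0 counts in all 6 libraries, which allows up to 0.0118 CPM on average.

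Among 10 genes that act on MYC protein, 5 were higher and 1 lower (50% and 10%, against 25.5% and 27.2% of all genes tested). Pim1, a kinase gene whose product phosphorylates MYC and stabilises it, rose to 160 ± 20.0 CPM in NETs-treated cells, against 42.1 ± 4.25 CPM in control cells. Trrap, a scaffold of the histone acetyltransferase complexes that MYC recruits, rose with a log2 fold change of 0.58 ± 0.07. Skp2, Fbxw7 and Usp28 were called higher as well, by 0.57 ± 0.09, 0.47 ± 0.09 and 0.27 ± 0.08 on the log2 scale. Gsk3b, a kinase that marks MYC for degradation, fell with -0.28 ± 0.08, a call lost without control replicate 2. Under library-size scaling 2 genes of this list were lower.

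Of the 6 genes for RNA polymerase I and nucleolar organisation, 1 fell and 0 rose, also at an unadjusted p under 0.05 in edgeR and with DESeq2 and limma-voom. With GC correction 1 rose. In the main test the shares were 0% higher and 16.7% lower, against 25.5% and 27.2% of all genes tested. Polr1a, the gene of the largest subunit of RNA polymerase I, had 79.0, 68.8 and 66.0 CPM in NETs-treated and 96.9, 101 and 97.3 CPM in control samples. The groups did not overlap, and the log2 fold change was -0.47 ± 0.08 (SE; edgeR adjusted p = 0.00177). Polr1b, the gene of the second largest subunit, had 80.1, 69.4 and 74.7 CPM in NETs-treated and 82.4, 74.0 and 82.4 CPM in control samples, which overlapped (log2 fold change -0.09, 95% interval -0.28 to 0.10). Polr1a spans 71909053 to 71984935 on chromosome 6.

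Npm1, which encodes the chaperone nucleophosmin, was the most abundant of the 44 genes, at 453 CPM per kilobase in NETs-treated and 463 in control samples. It had 1256, 1201 and 1161 CPM in NETs-treated and 1207, 1240 and 1253 CPM in control samples. Its log2 fold change was -0.03, with a 95% interval from -0.15 to 0.09. Ncl, the gene of the RNA-binding protein nucleolin, had 1034, 1001 and 987 CPM in NETs-treated and 989, 1050 and 1005 CPM in control samples, a log2 fold change of -0.01 with an interval from -0.13 to 0.11. The groups overlapped for both genes. With GC correction the log2 fold changes were -0.16 for Npm1 and -0.12 for Ncl, and neither passed. Mybbp1a, whose product binds MYB and restrains RNA polymerase I, and the helicase gene Ddx21 did not pass, with log2 fold changes of 0.04 and 0.06.

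Outside this group, the list of other RNA polymerase I genes had 10 of its 13 symbols in the table. Of these, 4 rose and 2 fell (40% and 20%, against 25.5% and 27.2% of all genes tested). Ubtf, the gene of the factor UBF that opens ribosomal DNA, fell to 47.5 ± 9.37 CPM in NETs-treated cells, against 92.1 ± 1.13 CPM in control cells. Taf1b, a subunit of the promoter selectivity factor, fell to 8.43 ± 0.683 CPM in NETs-treated cells, against 23.5 ± 2.81 CPM in control cells. Polr1e and the termination factor gene Ttf1 rose, with log2 fold changes of 0.59 ± 0.13 and 0.50 ± 0.09.

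The snoRNP group holds genes for most core proteins of both snoRNP classes, a chaperone and a U3 protein; the core genes Nop10 and Snu13 are counted with the other snoRNP genes. Of the 8 genes in the group 5 fell and 0 rose (none at an unadjusted p under 0.05 in edgeR, nor with DESeq2 or limma-voom), with a median log2 fold change of -0.40. The shares were 0% higher and 62.5% lower, against 25.5% and 27.2% of all genes tested. Together the 8 genes took 0.0679%, 0.0595% and 0.0535% of counts in the NETs-treated libraries and 0.0863%, 0.0844% and 0.0848% in the control libraries. Fibrillarin (Fbl), NOP56 and NOP58 form box C/D snoRNPs, which add methyl groups to ribosomal RNA. Nop56 had 119, 105 and 111 CPM in NETs-treated and 188, 188 and 184 CPM in control samples, with no overlap. It fell by 0.74 ± 0.07 on the log2 scale (edgeR adjusted p = 4.94e-05). Nop58 had 124, 135 and 132 CPM in NETs-treated and 144, 163 and 163 CPM in control samples, and also fell, by 0.27 ± 0.08, a call lost without NETs-treated replicate 2, control replicate 2 or control replicate 3.

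Fbl, the methyltransferase gene, had 65.0, 52.0 and 41.3 CPM in NETs-treated and 75.0, 64.8 and 74.2 CPM in control samples. NETs-treated replicate 1 overlapped the control range. The fall passed narrowly (log2 fold change -0.44 ± 0.15, edgeR adjusted p = 0.0392) and was lost in 7 of 17 settings, 5 of which left out 1 library, namely NETs-treated replicate 2 or 3 or any control replicate.

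Dyskerin (Dkc1), GAR1 and NHP2 belong to box H/ACA snoRNPs, which convert uridine in ribosomal RNA to pseudouridine. Gar1 showed the largest fall of all 44 genes. It had 10.9, 10.7 and 7.64 CPM in NETs-treated and 18.6, 18.9 and 18.7 CPM in control samples, a log2 fold change of -0.94 ± 0.15 (SE; edgeR adjusted p = 0.000971). Dkc1, the gene of the pseudouridine synthase itself, had 55.9, 56.0 and 46.8 CPM in NETs-treated and 84.7, 81.2 and 81.5 CPM in control samples. It fell by 0.64 ± 0.09 on the log2 scale (edgeR adjusted p = 0.000387), and neither gene's groups overlapped. Gar1 (ENSMUSG00000028010.16) spans 129824912 to 129831396 on chromosome 3, Dkc1 (ENSMUSG00000031403.14) spans 75095854 to 75109777 on chromosome X and Nop56 (ENSMUSG00000027405.16) spans 130274430 to 130279313 on chromosome 2.

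The other 3 snoRNP genes did not pass, and their NETs-treated samples were widely spread. Nhp2 had 86.9, 59.0 and 42.4 CPM in NETs-treated and 89.3, 81.4 and 73.3 CPM in control samples. Nolc1, the gene of the snoRNP chaperone Nopp140, had 197, 168 and 137 CPM in NETs-treated and 199, 192 and 195 CPM in control samples. Rrp9, which encodes a protein of the U3 snoRNP, had a log2 fold change of -0.23 ± 0.13. In each of these genes NETs-treated replicate 1 was the highest of its group and the other two samples were lower. Without NETs-treated replicate 1 all 8 genes passed as lower, and 3 passed without NETs-treated replicate 2, without control replicate 2 or without control replicate 3.

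Spread among the NETs-treated libraries was also wider over all genes. Over all genes tested the median SD of log2 CPM was 0.20 among NETs-treated and 0.12 among control libraries. Over the 40 ribosome biogenesis genes it was 0.12 and 0.06 in the same groups.

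Of 12 other snoRNP genes 4 rose and 4 fell, 33.3% in either direction, against 25.5% higher and 27.2% lower of all genes tested. Znhit3 and Nufip1, which encode assembly factors of box C/D snoRNPs, rose with log2 fold changes of 1.14 ± 0.12 and 1.05 ± 0.10. The largest falls were those of Pih1d1, a subunit of the R2TP assembly chaperone, with -1.16 ± 0.13, and of Tcof1, whose product treacle links ribosomal DNA transcription to processing, with -0.89 ± 0.12. The 2 core genes of this list were chosen after their values were seen. The box H/ACA gene Nop10 was called higher, with 40.7, 35.2 and 24.2 CPM in NETs-treated and 23.5, 25.9 and 21.5 CPM in control samples. These groups overlapped, and its log2 fold change was 0.50 ± 0.18 (edgeR adjusted p = 0.0434). The box C/D gene Snu13 did not pass (0.12 ± 0.08). The count of 4 higher was 2 without NETs-treated replicate 2, without any one control replicate, and under library-size scaling.

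**Figure D3:**
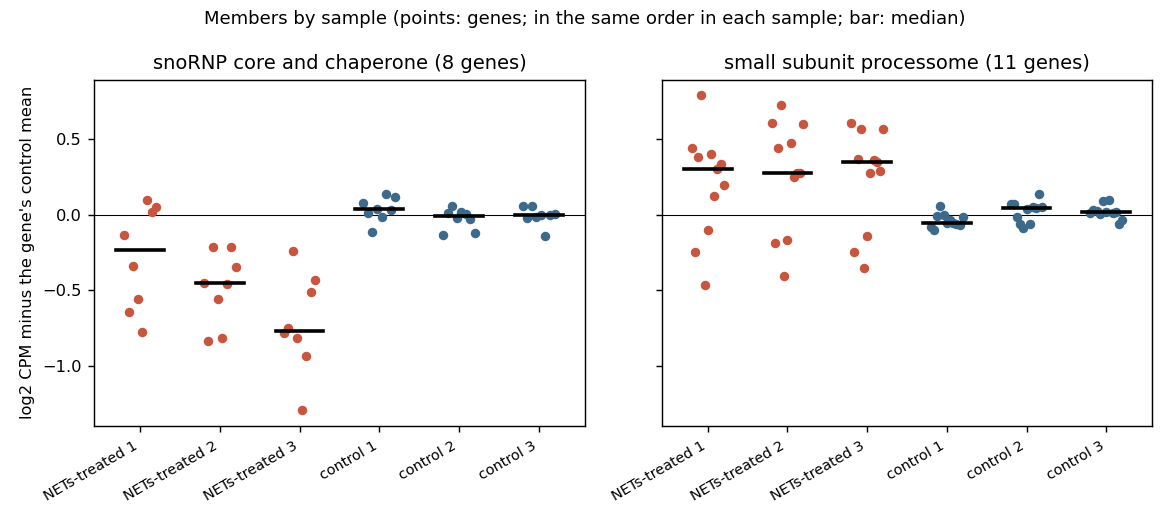
Log2 CPM of each gene minus its control mean in every sample, for the 8 snoRNP genes and the 11 small subunit processome genes, with a bar at the median. The snoRNP medians are -0.24, -0.46 and -0.77 in NETs-treated replicates 1, 2 and 3, and those of the small subunit processome are 0.30, 0.28 and 0.35, while control medians lie within 0.06 of 0.

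In the small subunit processome group 8 of 11 genes rose and 2 fell (72.7% and 18.2%, against 25.5% and 27.2% of all genes tested), with a median log2 fold change of 0.31. The group is wider than its name: it also holds Tsr1 and Rrp12, factors of later maturation and export, and both are among the rises. Over the 17 other settings the count of higher genes lay between 6 and 8, and 1 gene was lower without NETs-treated replicate 2, control replicate 2 or control replicate 3. Utp14a, which encodes a factor that activates the helicase DHX37 late in processome maturation, had 91.9, 87.9 and 78.6 CPM in NETs-treated and 55.3, 51.0 and 53.4 CPM in control samples. The groups did not overlap, and the log2 fold change of 0.70 ± 0.08 was the largest of this group (edgeR adjusted p = 0.000168). Of its exon bases 11.5% overlap the noncoding gene 9530027J09Rik on the other strand.

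HEATR1, UTP4 and WDR43 belong to the subcomplex that binds the precursor first and is also needed for its transcription. Heatr1 had 171, 192 and 191 CPM in NETs-treated and 119, 132 and 127 CPM in control samples, a log2 fold change of 0.55 ± 0.08 (edgeR adjusted p = 0.000393). Utp4, the most abundant gene of the processome group per kilobase, had 222, 231 and 219 CPM in NETs-treated and 169, 168 and 173 CPM in control samples. It rose by 0.40 ± 0.06 on the log2 scale. Wdr43 went against them: it had 138, 144 and 138 CPM in NETs-treated and 152, 171 and 167 CPM in control samples and fell by 0.23 ± 0.07, a call lost without NETs-treated replicate 2, control replicate 2 or control replicate 3. The members of this 1 subcomplex thus moved in both directions, and no groups overlapped for any of the 3 genes.

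Tsr1, a factor of late small subunit maturation in the cytoplasm, had 155, 205 and 200 CPM in NETs-treated and 134, 141 and 132 CPM in control samples. It rose by 0.46 ± 0.11 on the log2 scale (edgeR adjusted p = 0.00634). Of its exon bases 32.3% overlap Srr on the other strand, and the strand setting of the counting is not stated, so its reads and those of Srr may not be parted. Utp20, which encodes a large scaffold protein, had 56.1, 58.5 and 60.8 CPM in NETs-treated and 77.5, 72.7 and 82.5 CPM in control samples. It fell by 0.41 ± 0.08 (edgeR adjusted p = 0.0022). The library's ratio of Heatr1 to Utp20 counts was 3.16 ± 0.117 (SD, n = 3) in NETs-treated samples. In control samples it was 1.63 ± 0.163 (SD, n = 3). The pair was chosen after the values were seen. As the groups of both genes stood apart in opposite directions, this ratio adds no support.

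The other rises were smaller. The helicase gene Ddx10 had 84.1, 82.6 and 86.8 CPM in NETs-treated and 65.2, 70.4 and 68.9 CPM in control samples, a log2 fold change of 0.31 ± 0.07. Noc4l, a partner of NOP14, rose by 0.38 ± 0.09, Rrp12, a factor of subunit export, by 0.30 ± 0.08 and Imp4, a U3 snoRNP protein gene, by 0.25 ± 0.08. The call of Rrp12 was lost without control replicate 1 or control replicate 3. That of Imp4 was lost in 7 settings, among them each removal of 1 library other than NETs-treated replicate 1. Nop14 did not pass, with 96.9, 92.6 and 94.1 CPM in NETs-treated and 99.9, 106 and 105 CPM in control samples. Under library-size scaling and with GC correction Nop14 was called lower.

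Among 43 other small subunit processome genes 17 rose and 6 fell, a share of 39.5% higher and 14.0% lower. This list too holds factors of later maturation, such as Riok2. Without control replicate 1 the count of higher genes was 11. Fcf1, whose product is a nuclease-domain protein of the processome, rose by 0.83 ± 0.10 on the log2 scale, and the late maturation kinase gene Riok2 by 0.82 ± 0.12. Tsr2, the gene of a chaperone of the ribosomal protein RPS26, fell by 1.33 ± 0.12 and the nucleolar factor gene Aatf by 0.91 ± 0.19.

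In large subunit assembly 1 of 15 genes rose, 5 fell and 9 did not pass. The shares were 6.67% higher and 33.3% lower, against 25.5% and 27.2% of all genes tested. BOP1, PES1 and WDR12 form the PeBoW complex, which is needed to process the precursor into the large subunit RNAs. Their genes did not move together. Bop1 had 173, 154 and 139 CPM in NETs-treated and 75.4, 73.4 and 71.7 CPM in control samples. Every NETs-treated sample was far above the control samples, and the log2 fold change of 1.08 ± 0.09 was the largest rise of all 44 genes (edgeR adjusted p = 2.30e-05). Bop1 (ENSMUSG00000022557.11) spans 76452989 to 76477277 on chromosome 15, and 1.69% of its exon bases overlap Mroh1 on the other strand.

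Pes1 had 136, 124 and 104 CPM in NETs-treated and 160, 149 and 141 CPM in control samples. It fell by 0.30 ± 0.10 on the log2 scale (edgeR adjusted p = 0.0364), a call lost in 7 of 17 settings. Those settings include each removal of 1 library other than NETs-treated replicate 1. Wdr12 had 78.8, 88.5 and 91.1 CPM in NETs-treated and 68.1, 83.6 and 81.3 CPM in control samples, and the groups overlapped (log2 fold change 0.15, 95% interval -0.08 to 0.38). The library's ratio of Bop1 to Pes1 counts was 1.28 ± 0.0533 (SD, n = 3) in NETs-treated samples. In control samples it was 0.491 ± 0.0176 (SD, n = 3). The pair was chosen after the values were seen. As the groups of both genes stood apart in opposite directions, this ratio adds no support.

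**Figure D4:**
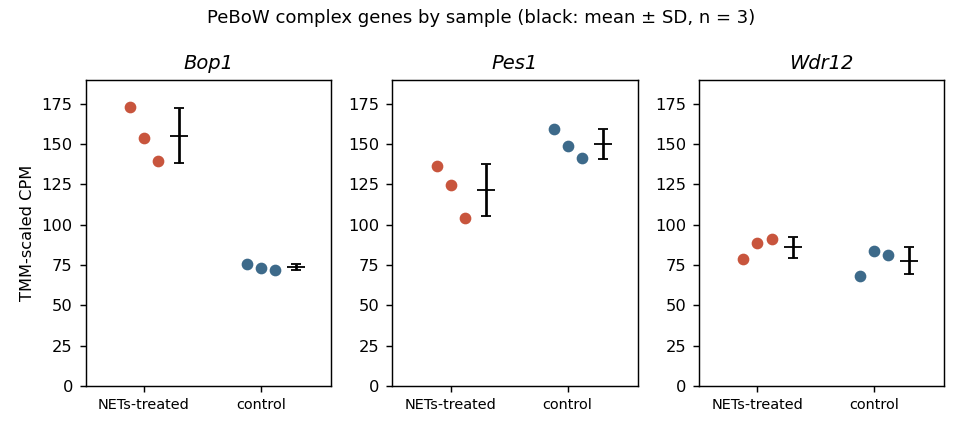
TMM-scaled CPM of the PeBoW complex genes Bop1, Pes1 and Wdr12 on a common axis, with 1 point per sample and the mean ± SD of 3 samples in black. Bop1 is above its control samples, Pes1 is below them, and Wdr12 overlaps.

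Gnl3, which encodes the nucleolar GTPase nucleostemin, had 88.0, 92.6 and 102 CPM in NETs-treated and 120, 136 and 127 CPM in control samples. It fell by 0.44 ± 0.08 (edgeR adjusted p = 0.00208). Noc3l had 43.3, 40.01 and 36.2 CPM in NETs-treated and 52.7, 55.6 and 51.6 CPM in control samples, a fall of 0.42 ± 0.09. In yeast the counterparts of NOC2L and NOC3L form a complex that moves the large precursor towards the nucleoplasm. Ebna1bp2 had 55.1, 45.0 and 45.3 CPM in NETs-treated and 64.4, 61.4 and 61.3 CPM in control samples, and its fall of 0.36 ± 0.09 was lost without NETs-treated replicate 2. No groups overlapped for these 3 genes. Mrto4, a factor of ribosomal stalk assembly, fell by 0.28 ± 0.09, a call lost in 8 settings, 5 of which left out 1 library (NETs-treated replicate 2 or 3, or any control replicate).

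Noc2l, the most abundant gene of this group, had 286, 268 and 241 CPM in NETs-treated and 300, 294 and 292 CPM in control samples. It did not pass (log2 fold change -0.16, 95% interval -0.33 to 0.01), and 20.9% of its exon bases overlap Samd11 on the other strand. Under library-size scaling and without NETs-treated replicate 1, Noc2l was called lower. The GTPase gene Gnl2 had 120, 114 and 102 CPM in NETs-treated and 93.1, 100 and 101 CPM in control samples, with an adjusted p of 0.0790 in edgeR. The remaining 6 genes, Nop2, Nop16, Ddx18, Rrp1b, Ftsj3 and Rrs1, had log2 fold changes between -0.11 and 0.25, and their groups overlapped. The count of higher genes was 3 without NETs-treated replicate 3, with the DESeq2 Wald test, with the CPM filter and with length correction, and 2 with GC correction or the replicate block. With no filter or with length correction 3 were lower, and the count of lower genes was 2 without NETs-treated replicate 2 and 3 without NETs-treated replicate 3 or any one control replicate.

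Among 44 other large subunit assembly genes 16 rose and 5 fell, a share of 36.4% higher and 11.4% lower. Urb2 rose by 0.72 ± 0.07 on the log2 scale. Efl1, the GTPase gene that releases EIF6 from the finished subunit, rose with 0.63 ± 0.10. The largest falls were those of Las1l, a nuclease that cuts within the second spacer, with -0.62 ± 0.10, and of Ppan with -0.39 ± 0.11. The count of lower genes moved to 8 without NETs-treated replicate 1, to 2 without NETs-treated replicate 2 or control replicate 1, and to 3 without control replicate 3 or with length correction.

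The ribosomal protein genes, which supply the protein part of the ribosome, were the largest list and had the highest number of rises. By share, the MYC network (75.0%) and the small subunit processome group (72.7%) were higher. Of 79 genes 42 rose and 0 fell in edgeR (53.2% higher, against 25.5% of all genes tested), with a median log2 fold change of 0.23. None was lower at an unadjusted p under 0.05 or with limma-voom, and 1 was with DESeq2. They took 6.36%, 6.18% and 6.21% of all counts in the NETs-treated libraries and 5.67%, 5.42% and 5.43% in the control libraries. Rpl39 had 839, 1171 and 1460 CPM in NETs-treated and 486, 540 and 564 CPM in control samples. Rpl17 had 569, 613 and 791 CPM in NETs-treated and 326, 374 and 285 CPM in control samples. Neither gene's groups overlapped, with log2 fold changes of 1.13 ± 0.17 and 1.00 ± 0.14.

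The direction was less uniform without NETs-treated replicate 1, where 41 of these genes were higher and 10 lower, 4 were lower with the replicate number as a block, and 1 under library-size scaling and in the authors' deposited table. Ribosomal protein genes and Npm1 have many near-identical processed pseudogenes, and how reads were shared among such copies is not stated.

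RNA exosome genes, which trim and degrade precursor pieces, had 2 of 14 higher and 5 lower (14.3% and 35.7%, against 25.5% and 27.2% of all genes tested). Exosc7 fell by 0.88 ± 0.10 and the catalytic subunit gene Exosc10 by 0.70 ± 0.10, while Exosc4 rose by 0.57 ± 0.13. Exosc6 had 59 counts in the NETs-treated and 3 in the control libraries together, a ratio of 21.2 with a 95% exact interval for counting error from 6.92 to 106. The count of higher genes was 5 without NETs-treated replicate 1. RNA polymerase III makes the 5S ribosomal RNA, and 4 of 22 of its genes were higher and 7 lower. These shares, 18.2% and 31.8%, lay near the background. Bdp1, an initiation factor gene, rose with 1.24 ± 0.07, and Gtf3c4 with 0.56 ± 0.07. Polr3gl fell by 0.73 ± 0.09 and Polr3d by 0.71 ± 0.19. The count of 4 was 2 without control replicate 2, without control replicate 3 and under library-size scaling.

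MYC targets outside ribosome biogenesis had 4 of 21 genes higher and 9 lower, with a median log2 fold change of -0.19. The shares were 19.0% higher and 42.9% lower, against 25.5% and 27.2% of all genes tested. Shmt2, the mitochondrial serine hydroxymethyltransferase gene, fell to 93.5 ± 6.96 CPM in NETs-treated cells, against 200 ± 18.8 CPM in control cells. Eif4a1, which encodes a translation initiation helicase, fell by 0.74 ± 0.06 on the log2 scale. Against them, Tfrc, the transferrin receptor gene, rose by 0.49 ± 0.09, and Nme1, a nucleoside diphosphate kinase gene, by 0.45 ± 0.10. CACGTG stood in 8 of the 19 available promoter windows of this list (42.1%).

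Among the 44 genes themselves, CACGTG stood in 4 of 10 windows of genes called higher, 3 of 12 of genes called lower and 2 of 15 of genes not called. With CATGTG or CACGCG accepted as well, on either strand, 22 of the 37 windows matched (59.5%), against 37.1% of tested genes with a window.

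**Figure D5:**
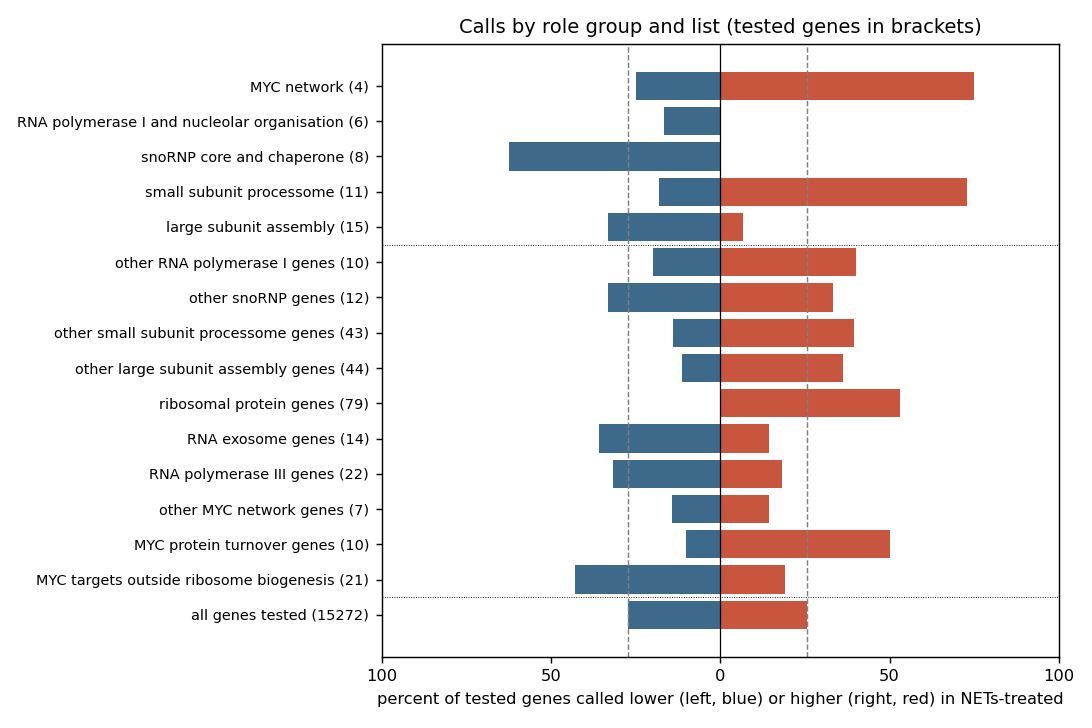
Percent of tested genes called higher (red, to the right) and lower (blue, to the left) in NETs-treated cells, for the 5 role groups, for other genes of the pathway and for all genes tested, with the number of tested genes in brackets. Dashed lines mark the background of 25.5% higher and 27.2% lower. Of the role groups, the MYC network and small subunit processome extend past it on the right, and the snoRNP and large subunit assembly groups on the left. Most other lists also cross a line. The ribosomal protein, MYC protein turnover and other RNA polymerase I, processome and large subunit lists do so on the right. The RNA exosome, RNA polymerase III and MYC target lists cross on the left, and the other snoRNP genes on both sides.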

How the data were processed

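Per the file headers, the authors deposited raw read counts for every gene in 1 table. The same deposited table holds normalised counts (a signal: on checking, each was the count over a constant of its sample) and the authors' p-values, raw and adjusted, with log2 fold changes. HISAT2 and DESeq2, and the builds mm10 and rn6, appear in the submitters' processing notes without versions or roles. The read counter, strand option and annotation version are not given in the sources used. Libraries were strand-specific, per the labels' protocols.

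Tests used the raw counts: edgeR 4.0.16 (R 4.3.3), quasi-likelihood test, two-sided, TMM scaling, all 6 samples, no covariates. The edgeR filter (minimum count 10, minimum total 15) kept 15272 genes. P-values were adjusted over all of them by the Benjamini-Hochberg method with a threshold of 0.05. The SE was taken from the fold change and its F statistic. The fit was tested on simulated data. CPM values are TMM-scaled, mean ± SD over 3 samples. Within-group library pairs differed by more than sampling noise (chi-square per gene 9.77 to 77.2), so each library counted as 1 sample. Coordinates, exon lengths and GC content came from GENCODE M21 (GRCm38), matched by identifier, for Myc and Noc2l without its version. Exon length is the union of annotated exons.

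The members and lists were chosen with earlier results of these data known, so lists are described by counts and medians, without a test. All 44 genes are accounted for. Every sample is shown for the MYC network and, in each role group, for up to 4 called genes with the largest change, up to 2 against the majority, the most abundant and up to 2 not called; further members are shown in the same way. From each other list up to 2 called genes with the largest change in each direction are named. For genes that act on MYC protein, all called genes are named. Of the RNA polymerase I list, 3 symbols were not matched. The summed level of the microglia marker list is not reported here.

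Alternatives were DESeq2 size factors, library size only, upper-quartile factors, DESeq2 1.42.0 (Wald test), limma-voom (limma 3.58.1), no filter, a minimum of 1 CPM in 3 samples, the replicate block, leaving out each sample, GC correction (lowess span 0.3) and the authors' table. Length correction was added after seeing the data.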

Additional observations from a re-analysis of the deposited data

How the results depend on the processing

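All 26 called genes kept their direction in the 17 other settings run, and 17 of them also kept their call in every one. Leaving out 1 library moved the count of higher genes among the 44 between 9 and 13. The count of lower genes moved between 8 and 18, lowest without NETs-treated replicate 2 and highest without NETs-treated replicate 1. With scaling by library size only, the median log2 fold change of the ribosome biogenesis genes was -0.137 and that of all genes tested -0.092. The share of the 37 promoter windows with a match was 59.5% when CATGTG or CACGCG were accepted too. The authors' deposited table called 12 of the 44 genes higher and 14 lower.

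Genes that did not pass turned sign near 0. Ncl had log2 fold changes of 0.0027 with the DESeq2 size factors, 0.0027 with the DESeq2 Wald test and 0.021 with the CPM filter, and Ftsj3 had 0.0013, 0.0014 and 0.021 in these settings and 0.017 with length correction, which was added after seeing the data. Mybbp1a had -0.033 and Ddx21 -0.012 with library size only, Wdr12 -0.063 with GC correction and Npm1 0.049 with length correction. With GC correction Npm1 had -0.159 and Ncl -0.123, the lowest values of either in any setting. Without 1 library, Ncl ran from -0.031 to 0.013, Npm1 from -0.049 to 0.0031 and Ftsj3 from -0.078 to 0.095. The cause of these turns was not tested.

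With the replicate number as a block, 13 of the 44 genes were higher and 15 lower, Nhp2 and Nop2 being added. Samples of the same number correlated at 0.09, 0.03 and 0.06 in their deviations from the group means. Each sample correlated best with its own number, a hint from the data and not from the design, so the main test has no block. With 3 samples a group, small differences can go uncalled, and Myc rests on the fewest reads of the 44 genes.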
